A study of Mus musculus with 3 samples.

Results

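The 35 genes described here encode the enzymes, carriers and regulators of glycolysis and other targets of the hypoxia-inducible factors (HIF), and they were chosen by gene symbol from the 32245 symbols in the deposited count matrices. They comprise Hif1a itself, 14 glycolytic enzymes (Hk1, Hk2, Gpi1, Pfkl, Pfkp, Aldoa, Aldoc, Tpi1, Gapdh, Pgk1, Pgam1, Eno1, Pkm and Ldha), 3 carriers (Slc2a1, Slc2a3 and Slc16a3), 3 regulators of glycolytic flux (Pfkfb3, Pfkfb4 and Pdk1) and 14 other HIF targets (Bnip3, Bnip3l, Egln1, Egln3, Ero1l, Mif, Ddit4, Ndrg1, P4ha1, P4ha2, Ankrd37, Kdm3a, Higd1a and Gys1). They were measured by droplet single-cell RNA-seq in CD45+ TER119- cells sorted from subcutaneous MC38-Ova tumors, an ovalbumin-bearing line of the murine colon adenocarcinoma MC38, grown in WT C57BL/6 Kaede mice that were all treated with an isotype control. Kaede is a photoconvertible protein that turns from green to red in violet light, so that after photoconversion of the whole tumor on day 13 and harvest on day 15, Kaede-green cells had arrived within 48 h and Kaede-red cells had been in the tumor for at least 48 h. There were 2 Kaede-green libraries and 1 Kaede-red library. CD11b+ NK1.1- myeloid cells were left out at the sort. Whether a library pools animals, and the age and sex behind each library, are not given in its labels, so p-values refer only to these libraries. They measure how far differences between groups of cells vary from library to library, with differences between whole libraries taken out by the fit.

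Glycolysis splits glucose into pyruvate. In cells that make lactate, pyruvate is reduced by lactate dehydrogenase and exported by a monocarboxylate carrier. The HIF alpha subunits are hydroxylated by the oxygen-dependent EGLN enzymes and degraded when oxygen is plentiful, and when oxygen is scarce they accumulate, pair with ARNT and bind a short core motif near their target genes. Nearly all glycolytic enzymes, the glucose carriers and a set of genes for mitophagy, collagen hydroxylation and feedback on HIF are known targets. In T cells and NK cells, antigen-receptor and cytokine signaling can also raise HIF-1 alpha and glycolytic genes without low oxygen.

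The core motif was looked for in the 250 bases upstream of each annotated gene start (RefSeq, GRCm38.p6) as ACGTG or GCGTG on either strand. Of the 35 members, 32 had a promoter entry under their symbol or a synonym, with 44 windows in all, and Slc2a3, Bnip3l and Ndrg1 had none. At least 1 core match was found in 34 of the 44 windows (77.3%), against 38.6% of the 32851 windows of all genes. Both motifs contain CG, and the windows of all genes were not matched to those of the members for base composition. A gene with several starts counts once per window, and the members were listed as glycolysis genes and HIF targets beforehand. Gpi1, Tpi1, Mif and Gys1 held no match in this window. Matches of both strands overlap where the letters read CACGTG and are then counted on each strand, and a match is a description of letters, not a site of binding. Shown here are the upstream windows of 4 members, 5′ to 3′ on the strand of the gene with the core letters in capitals. They were chosen after their values were seen, because the results turn on them. Pgk1 (chrX:106186850-106187099, plus strand, 2 matches) is an enzyme higher in both Itga1-positive NK cells and Havcr2-positive CD8 T cells. Gpi1 and Tpi1, also higher in both, held no match. Bnip3 (chr7:138909507-138909756, minus strand, 5 matches) is the target whose log2 difference was largest in CD8 T cells. Pfkp (chr13:6648772-6649021, minus strand, 3 matches) and Egln3 (chr12:54203875-54204124, minus strand, 1 match) are the members called in opposite directions in NK cells and CD8 T cells.
Pgk1: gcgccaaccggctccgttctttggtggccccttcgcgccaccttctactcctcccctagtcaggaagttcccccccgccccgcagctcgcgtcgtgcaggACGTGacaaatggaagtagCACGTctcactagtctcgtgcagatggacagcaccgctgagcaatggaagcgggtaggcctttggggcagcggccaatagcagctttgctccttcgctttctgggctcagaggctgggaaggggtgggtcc
Bnip3: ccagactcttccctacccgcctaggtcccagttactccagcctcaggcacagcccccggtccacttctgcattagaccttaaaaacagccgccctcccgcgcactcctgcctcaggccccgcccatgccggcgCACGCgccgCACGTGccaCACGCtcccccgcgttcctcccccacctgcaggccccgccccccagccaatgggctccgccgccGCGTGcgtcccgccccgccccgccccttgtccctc
Pfkp: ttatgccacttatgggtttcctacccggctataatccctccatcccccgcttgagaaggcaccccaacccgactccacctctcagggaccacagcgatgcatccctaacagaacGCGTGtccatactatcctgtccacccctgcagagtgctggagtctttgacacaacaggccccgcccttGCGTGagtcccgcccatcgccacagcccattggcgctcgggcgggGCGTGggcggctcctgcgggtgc
Egln3: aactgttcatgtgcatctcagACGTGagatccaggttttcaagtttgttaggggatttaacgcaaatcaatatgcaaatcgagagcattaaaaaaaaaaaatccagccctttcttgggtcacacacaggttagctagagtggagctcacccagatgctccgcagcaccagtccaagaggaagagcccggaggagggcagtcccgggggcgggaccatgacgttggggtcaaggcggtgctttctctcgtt

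The libraries held between 10498 and 12327 barcodes and between 87193225 and 175848894 UMIs (unique molecular identifiers, each standing for a captured transcript), with 10000 to 11078 cells passing the filters of 1000 to 6000 genes and under 7.5% mitochondrial UMIs. Between 20 and 36 barcodes were shared by each pair of libraries. Cells were assigned by raw UMIs to NK cells (Ncr1 at 1 or more, Cd3e at 1 or less), CD8 T cells (Cd3e at 2 or more, Cd8a and Cd8b1 at 1 or more), Treg cells (Cd3e at 2 or more, Foxp3 at 1 or more) or gamma-delta T cells (Cd3e and Cd163l1 at 1 or more), and the 147 to 273 cells per library that met several definitions were left out. NK cells were divided into those with Itga1 (CD49a) and no Itgam (CD11b) and those with Itgam and no Itga1, and CD8 T cells by the presence of Havcr2 (TIM-3). The genes that set the gates are no finding. Levels are given as CPM (UMIs of a gene scaled to the total of the gate). The gamma-delta marker list summed to 3980 to 5901 CPM in gamma-delta T cells and at most 164 in the other gates. The Treg list summed to 6547 to 7726 CPM in Treg cells and at most 1415 elsewhere. Both sums include a gate gene, Cd163l1 at 595 to 750 CPM and Foxp3 at 320 to 374 CPM, which is high there by construction. The other genes of both lists were also highest in the gate of their label. Trdc, for example, stood at 1897 to 2441 CPM in gamma-delta T cells and at most 107 elsewhere. Of the 7 tumor or stroma markers, Krt8 and Krt19 were at 0 in the NK, CD8 T, Treg and gamma-delta T gates, but others were detected. The 7 together summed to 2.94 to 12.3 CPM in Itgam-positive and 14.1 to 24.9 CPM in Itga1-positive NK cells. In the latter cells, Cdh1 stood at 8.88 to 18.9 CPM.

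Together, the 14 glycolytic enzymes took 0.297%, 0.304% and 0.386% of all UMIs in Itgam-positive NK cells of the first Kaede-green, the second Kaede-green and the Kaede-red library, and every triple of values hereafter follows this order. Their share was 0.614%, 0.560% and 0.723% in Itga1-positive NK cells and 0.380%, 0.353% and 0.407% in gamma-delta T cells. In CD8 T cells it was 0.529%, 0.513% and 0.778% without Havcr2 and 1.11%, 0.822% and 1.21% with it. Treg cells gave 0.926%, 0.856% and 0.851%. The enzyme shares of the 2 NK gates did not overlap, nor did those of the 2 CD8 T gates. The 14 other HIF targets were ordered alike between the paired gates, at 0.0730% to 0.0923% in Itgam-positive and 0.121% to 0.136% in Itga1-positive NK cells, and at 0.121% to 0.161% in Havcr2-negative and 0.168% to 0.220% in Havcr2-positive CD8 T cells. Their highest single share among the Treg libraries was 0.210%, and gamma-delta T cells, at 0.0877% to 0.0994%, overlapped Itgam-positive NK cells. Such a sum is weighted by abundant members such as Mif. Gene by gene, 6 of 13 tested HIF targets were higher and 2 lower in Itga1-positive NK cells, against 18.4% and 17.2% of all genes. The 2 lower are thus near the share of all genes.

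**Figure D1:**
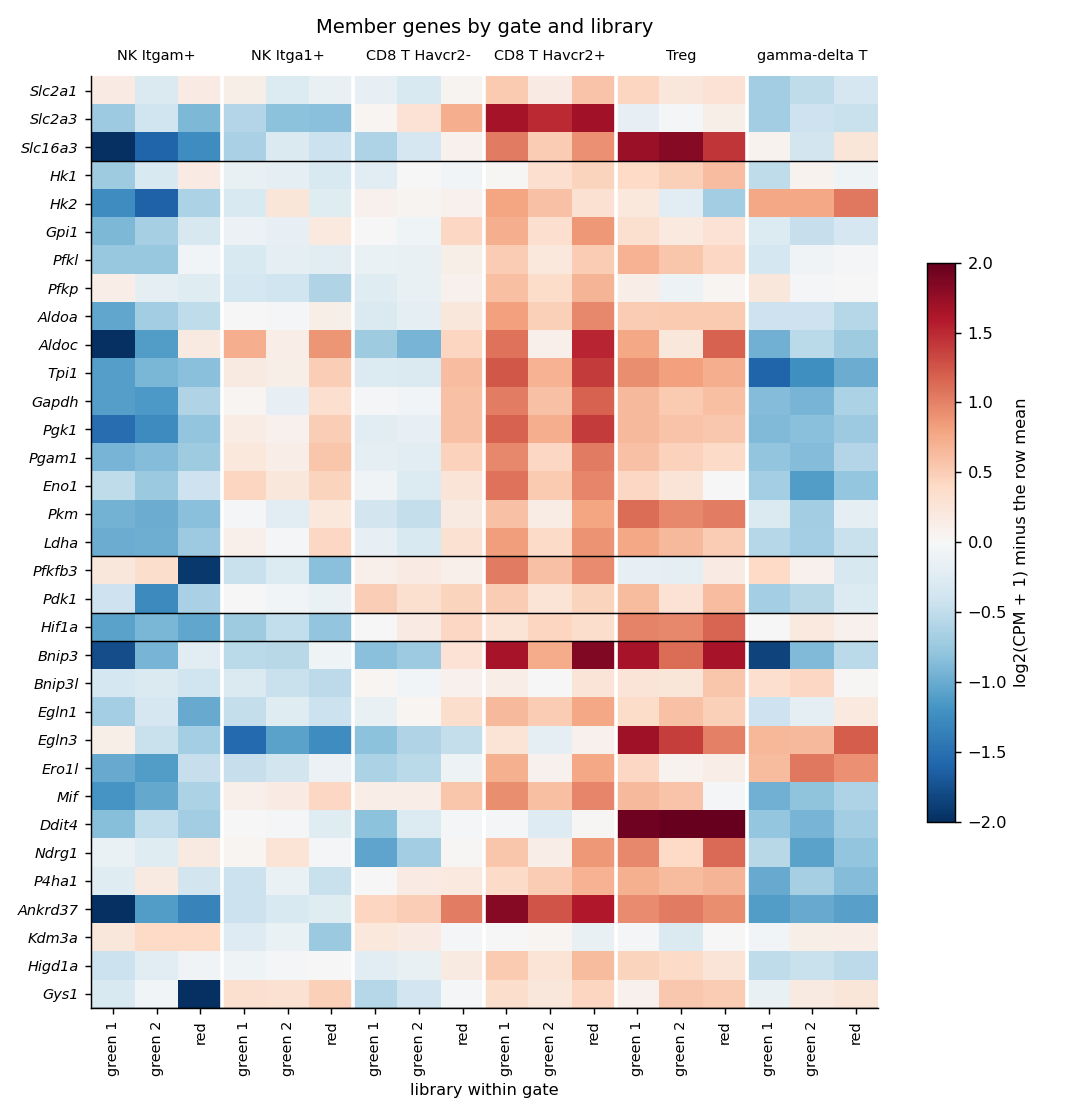
Level of each member in the 3 libraries (columns within each of 6 gates), as log2(CPM + 1) minus the member's mean over the 18 columns, with the color clipped at 2 units either way and P4ha2 and Pfkfb4 left out for their low counts. Rows are grouped by role, and most enzyme rows are below their mean in Itgam-positive NK cells and gamma-delta T cells and above it in Havcr2-positive CD8 T cells.

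Itga1-positive and Itgam-positive NK cells were compared within libraries, to ask how NK cell states within the tumor differ. Of the 33 members that passed the low-count filter, 21 were higher and 3 lower in Itga1-positive NK cells, where 18.4% of all 9497 genes tested were higher and 17.2% lower. The median log2 difference was 0.70 over the members and -0.02 over all genes. By role, 12 of the 14 enzymes were higher (median 1.05) and 1 lower, 1 of 3 carriers was higher, 1 of 2 tested regulators was higher, Hif1a was higher, and 6 of 13 tested HIF targets were higher (median 0.33) and 2 lower. On CPM without TMM scaling the median over all genes lay at -0.10, against -0.02 with it, and called directions below are relative to the latter.

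Pgk1 (phosphoglycerate kinase, the first step that yields ATP) measured 121, 145 and 202 CPM in Itgam-positive and 389, 369 and 489.8 CPM in Itga1-positive NK cells. Every Itga1-positive value lay above every Itgam-positive value. The difference was 1.52 ± 0.10 on the log2 scale (SE of the fit, n = 3 libraries, adjusted p = 1.58e-06 by edgeR), or 2.86-fold. In cells of 4000 to 16000 UMIs it was 0.71. Tpi1 (triosephosphate isomerase) measured 118, 134 and 142 CPM against 288, 276 and 357 CPM, a log2 difference of 1.29 ± 0.09 (adjusted p = 2.36e-06). Ldha, the lactate dehydrogenase subunit, stood at 362, 367 and 438 CPM against 777, 705 and 966 CPM, and Gapdh at 899, 871 and 1274 CPM against 1993, 1731 and 2437 CPM. Neither gene's gates overlapped, with log2 differences of 1.13 ± 0.08 and 1.10 ± 0.08. Pgam1, Eno1, Pkm, Aldoa and Gpi1 were likewise higher, by 1.21, 1.00, 0.98, 0.86 and 0.68 on the log2 scale, each with no overlap between gates. Here and below, overlap is described gene by gene, and the share of all genes without overlap was not counted.

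The entry steps of the pathway were less uniform. Hexokinase Hk2 measured 19.9, 15.1 and 30.8 CPM in Itgam-positive and 39.2, 57.7 and 41.0 CPM in Itga1-positive NK cells (log2 difference 1.33 ± 0.21, adjusted p = 0.000531), without overlap, whereas Hk1 overlapped, at 24.9, 33.2 and 46.2 CPM against 37.0, 36.5 and 33.1 CPM (0.23 ± 0.17, adjusted p = 0.316). The platelet-type phosphofructokinase Pfkp was the single enzyme called lower, at 134, 107 and 103 CPM against 95.4, 91.7 and 80.1 CPM. All Itga1-positive values of Pfkp lay below the Itgam-positive ones, but the difference was small (-0.28 ± 0.10, adjusted p = 0.0435). The liver-type Pfkl was higher by 0.44 ± 0.15 (adjusted p = 0.038) with overlapping gates. Aldoc, an aldolase, rested on 3, 9 and 7 UMIs in Itgam-positive NK cells (1.15, 3.78 and 10.8 CPM) and measured 16.3, 10.4 and 18.2 CPM in Itga1-positive ones. The Kaede-red Itgam-positive value overlapped the second Kaede-green Itga1-positive value, and the log2 difference was 2.02 ± 0.42 (adjusted p = 0.00274).

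Among the carriers, the lactate exporter Slc16a3 (MCT4) measured 7.65, 13.0 and 16.9 CPM in Itgam-positive and 26.1, 33.95 and 30.7 CPM in Itga1-positive NK cells, with no overlap and a log2 difference of 1.49 ± 0.19 (adjusted p = 0.000101). The glucose carriers did not follow it. Slc2a1 (GLUT1) stood at 41.7, 30.2 and 41.5 CPM against 40.2, 30.5 and 33.1 CPM, and Slc2a3 (GLUT3) at 12.2, 15.5 and 10.8 CPM against 13.6, 11.4 and 11.3 CPM. Both overlapped fully, with log2 differences of -0.01 ± 0.12 (adjusted p = 0.986) and -0.05 ± 0.23 (adjusted p = 0.885). Pdk1, the kinase that inhibits pyruvate dehydrogenase, was higher by 0.88 ± 0.27 (adjusted p = 0.0258) from 24, 11 and 5 UMIs in Itgam-positive NK cells. Pfkfb3, which makes the activator of phosphofructokinase, did not pass the test (-0.45 ± 0.31, adjusted p = 0.301).

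Hif1a measured 117, 129 and 118 CPM in Itgam-positive and 149.9, 174 and 141 CPM in Itga1-positive NK cells. The gates did not overlap, and the log2 difference was 0.43 ± 0.09 (adjusted p = 0.00349). Among the other targets, Mif (macrophage migration inhibitory factor) had 256, 286 and 372 CPM against 619.8, 648 and 771 CPM, without overlap and with a log2 difference of 1.25 ± 0.08 (adjusted p = 1.62e-06). Ddit4 (REDD1, an inhibitor of mTORC1) was higher by 0.70 ± 0.12 and the endoplasmic oxidase Ero1l by 0.67 ± 0.13. Ankrd37 was higher by 1.77 ± 0.47, but on 1, 9 and 2 UMIs in Itgam-positive NK cells. Bnip3, a mitophagy receptor, measured 7.27, 13.9 and 23.1 CPM against 18.5, 18.2 and 25.7 CPM, so that the Kaede-red Itgam-positive value overlapped (0.71 ± 0.23, adjusted p = 0.0329), while its relative Bnip3l was level at 0.00 ± 0.10 (adjusted p = 0.978). The prolyl hydroxylase Egln3 and the histone demethylase Kdm3a were lower, by -1.26 ± 0.45 (adjusted p = 0.0447) and -0.60 ± 0.19 (adjusted p = 0.0268) on the log2 scale. Egln3 had 16, 9 and 2 UMIs in Itgam-positive and 5, 16 and 68 UMIs in Itga1-positive NK cells, or 6.12, 3.78 and 3.08 against 1.23, 2.11 and 1.76 CPM. Egln1, Ndrg1, P4ha1 and Gys1 did not pass the test, Higd1a was higher by 0.28 ± 0.09, and P4ha2 and Pfkfb4 were below the low-count filter.

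The NK gates also differed in other ways. Itga1-positive cells had median UMI counts of 9493, 12066 and 24467 against 5348, 6717 and 6701, and cells with Mki67 or Top2a made up 23.5%, 37.8% and 51.3% against 9.88%, 20.6% and 17.1%. All 9 myeloid markers together summed to 14.5, 693 and 211 CPM in Itgam-positive and 27.6, 49.8 and 7.59 CPM in Itga1-positive NK cells, with S100a8 and S100a9 at 0. The Kaede-red Itgam-positive gate held 76 cells. The 5 B cell markers summed to 66.6, 77.7 and 81.5 CPM in Itgam-positive and 144, 138 and 191 CPM in Itga1-positive NK cells, mostly as Ighm. Cells with 2 or more UMIs over the B cell, myeloid and tumor or stroma markers, called mixed droplets here, made up 9.88%, 21.6% and 26.3% of Itgam-positive and 39.7%, 50.6% and 76.1% of Itga1-positive NK cells. Without them, 14 of the 19 higher members that could be tested remained called, and 20 of 21 when Ighm was not counted. In cells of 4000 to 16000 UMIs, 14 of 19 remained called, and without cycling cells 18 of 20. The log2 differences were smaller in that UMI range, at 0.71 for Pgk1, 0.68 for Tpi1, 0.60 for Ldha, 0.60 for Gapdh and 0.43 for Pgam1, all still called. The part that the markers and mixed droplets have in the differences was not tested. Bnip3 turned in sign in that UMI range (-0.28), and Ero1l (0.13), Pfkl (0.07), Pdk1 (0.71) and Higd1a (0.16) were no longer called. Without Kaede-green replicate 2, 16 of the 21 remained, the calls lost being Hif1a (0.39), Pfkl, Pdk1, Bnip3 and Higd1a, and none of the 3 lower members remained called there or by DESeq2.

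Havcr2-positive and Havcr2-negative CD8 T cells were compared in the same way, Havcr2 being used as a marker of an exhausted or strongly activated state. Of 34 members tested, 28 were higher and 1 lower in Havcr2-positive cells, against 13.2% of all 12200 genes higher and 13.4% lower. All 14 enzymes were higher (median log2 difference 0.71), as were all 3 carriers (median 1.07) and 10 of 13 tested HIF targets (median 0.52). The median over all genes was -0.00. These calls rest on the pairing of gates within a library (without the library term, 1 of the 28 remained called). DESeq2 kept 27 of the 28, and with each library left out in turn between 25 and 28 were kept.

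The 3 carriers were higher together in CD8 T cells. Slc2a3 measured 21.5, 25.8 and 35.1 CPM in Havcr2-negative and 68.0, 60.3 and 68.9 CPM in Havcr2-positive CD8 T cells, a log2 difference of 1.22 ± 0.11 (n = 3 libraries, adjusted p = 0.00041). Slc16a3 measured 26.6, 32.8 and 44.2 CPM against 86.1, 59.8 and 79.5 CPM (1.07 ± 0.15), and Slc2a1 measured 33.0, 29.7 and 38.5 CPM against 53.5, 41.6 and 55.3 CPM (0.52 ± 0.07). None of the 3 overlapped between gates, which describes these genes and was not counted over all genes. Of the regulators, Pfkfb3 was higher at 18.9, 13.6 and 17.7 CPM against 9.40, 9.87 and 9.37 CPM (0.75 ± 0.12, adjusted p = 0.0041), again with no overlap, whereas Pdk1 was level at 18.3, 15.4 and 17.6 CPM against 18.2, 15.9 and 17.5 CPM (-0.05 ± 0.08, adjusted p = 0.69). Pfkfb4 was called lower (-1.07 ± 0.30, adjusted p = 0.0346) on 7, 10 and 33 UMIs in Havcr2-positive cells, and that call was lost by DESeq2.

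Among the enzymes, Pgk1 measured 302, 312 and 524 CPM in Havcr2-negative and 792, 581 and 922 CPM in Havcr2-positive CD8 T cells (0.99 ± 0.10, adjusted p = 0.000586), and Tpi1 measured 208, 207 and 388 CPM against 599, 409 and 668 CPM (1.05 ± 0.12). Gates did not overlap for either gene, although the second Kaede-green Havcr2-positive value lay close above the Kaede-red Havcr2-negative one. Aldoc had the largest enzyme difference, 1.33 ± 0.15, from 5.37, 4.48 and 13.0 CPM to 21.2, 10.1 and 28.9 CPM with an overlap of that same pair of values. Pfkp, lower in Itga1-positive NK cells, was higher here at 186, 158 and 195 CPM against 103, 110.1 and 129 CPM (0.61 ± 0.07, adjusted p = 0.00134), without overlap. The remaining enzymes lay between 0.34 (Hk1) and 0.85 (Eno1) on the log2 scale. Eno1 has a near-identical copy, Eno1b, which was higher by 0.87 ± 0.11, and how reads of the pair were assigned was not examined.

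Bnip3 had the largest difference of the members in CD8 T cells, at 14.9, 16.0 and 33.7 CPM without Havcr2 and 87.2, 46.3 and 102 CPM with it (1.81 ± 0.17, 3.50-fold, adjusted p = 0.000461). Its gates did not overlap. Ndrg1 was higher by 1.05 ± 0.14, Ero1l by 0.92 ± 0.12, Ankrd37 by 0.87 ± 0.14 and Egln3 by 0.75 ± 0.18, and Mif by 0.52 ± 0.07. Hif1a overlapped between the gates at 244, 274 and 328 CPM against 296, 329 and 312 CPM, and did not pass the test (0.11 ± 0.07, adjusted p = 0.272), but in cells of 4000 to 16000 UMIs it was called higher (0.37, adjusted p = 0.0335). Ddit4, Bnip3l and Kdm3a did not pass it either, at 0.22 ± 0.13, 0.08 ± 0.06 and -0.18 ± 0.08. Havcr2-positive cells had median UMI counts of 12628, 12591 and 17683 against 8441, 9517 and 11272.5, and 37.5%, 48.8% and 56.1% of them held Mki67 or Top2a against 22.2%, 37.7% and 42.2%. In cells of 4000 to 16000 UMIs 25 of the 28 higher members remained called, those lost being Egln3 (0.34, adjusted p = 0.43), Hk1 (0.26) and P4ha1 (0.24), and 26 remained without cycling cells, where Egln3 (0.82) was again not called, nor was it without the library term (0.79).

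**Figure D2:**
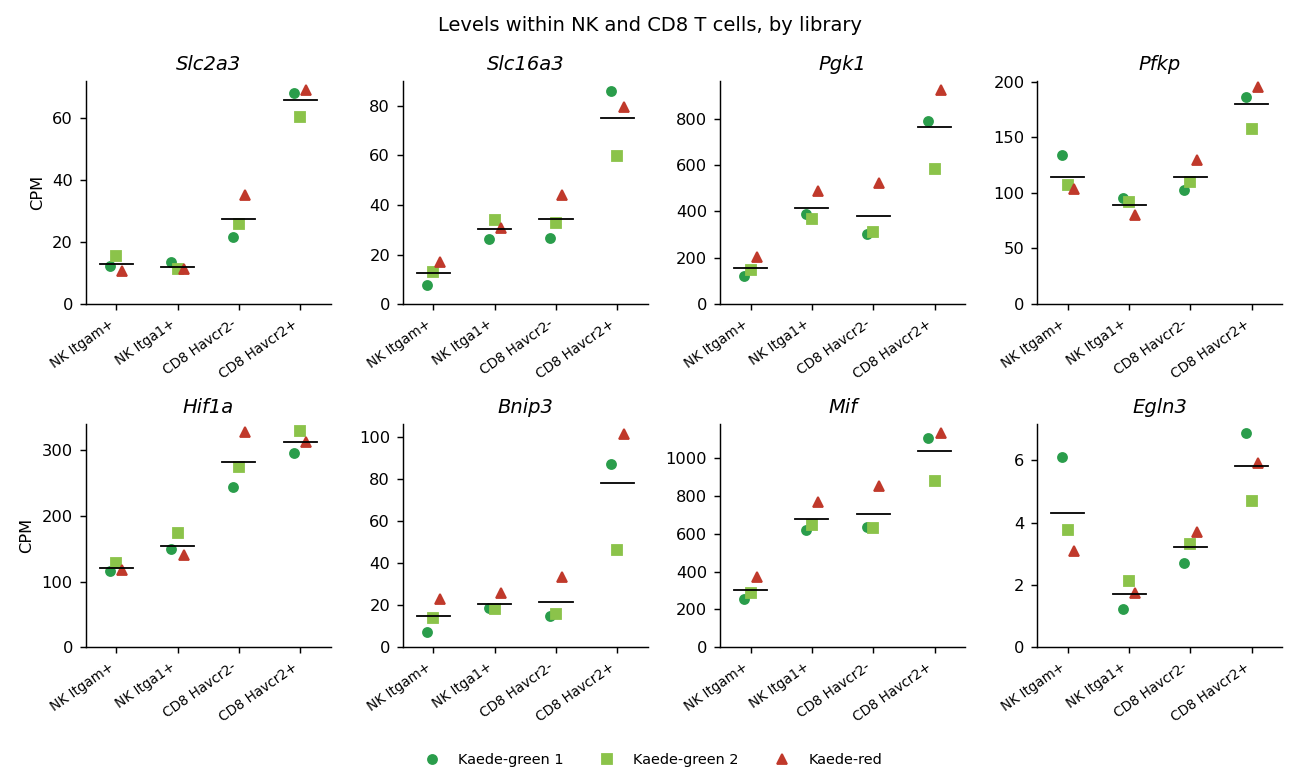
Level in CPM of 8 members in the 2 NK gates and the 2 CD8 T gates, with a point for each library and a line at the mean of the 3. Pgk1, Slc16a3 and Mif are higher in Itga1-positive than in Itgam-positive NK cells, Slc2a3 is higher with Havcr2 in CD8 T cells and level between the NK gates, and Pfkp and Egln3 are lower in Itga1-positive NK cells and higher in Havcr2-positive CD8 T cells.

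Both comparisons called 18 members higher, 3 were called higher in NK cells alone (Hif1a, Pdk1 and Ddit4, of which Hif1a was called in both between 4000 and 16000 UMIs, at 0.42 and 0.37), and 10 in CD8 T cells alone, of which 2, Pfkp and Egln3, were called lower in NK cells. The Egln3 call in CD8 T cells was lost in that UMI range. Whether the NK and CD8 T differences themselves differed was tested in 1 fit over both cell types. Of 34 members, 6 had a larger log2 difference in NK cells and 6 a smaller one, where 11.3% and 6.3% of all 12148 genes did. The larger ones were Hk2 (0.96 ± 0.27), Pdk1 (0.94 ± 0.22), Mif (0.76 ± 0.14), Pgk1 (0.55 ± 0.16), Ldha (0.45 ± 0.13) and Gapdh (0.41 ± 0.12). Smaller ones were Egln3 (-2.08 ± 0.43), Pfkfb3 (-1.41 ± 0.37), Slc2a3 (-1.38 ± 0.27), Pfkp (-0.90 ± 0.15), P4ha1 (-0.57 ± 0.16) and Slc2a1 (-0.55 ± 0.14). Both glucose carriers were thus among the members whose difference was smaller in NK cells, and the lactate exporter Slc16a3 was not (0.43 ± 0.34, adjusted p = 0.435). Hif1a did not pass this test (0.34 ± 0.13, adjusted p = 0.0788).

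The calls of the 6 larger differences were not kept in several subsets of the cells: 0 remained without mixed droplets and 1 without cycling cells. Between 4000 and 16000 UMIs 0 remained, and Pgk1 (-0.37), Gapdh (-0.14) and Ldha (-0.06) turned in sign. Hif1a stood at 0.02 there. In the same range, 4 of the 6 smaller differences remained called, namely Slc2a3 (-1.53), Pfkfb3 (-1.62), Pfkp (-0.97) and Slc2a1 (-0.61), and Bnip3 (-2.13) and Ero1l (-0.73) joined them. Without Kaede-green replicate 2, none of the 6 larger and 2 of the 6 smaller differences were called, and without the library term none and 3. The cause was not tested.

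**Figure D3:**
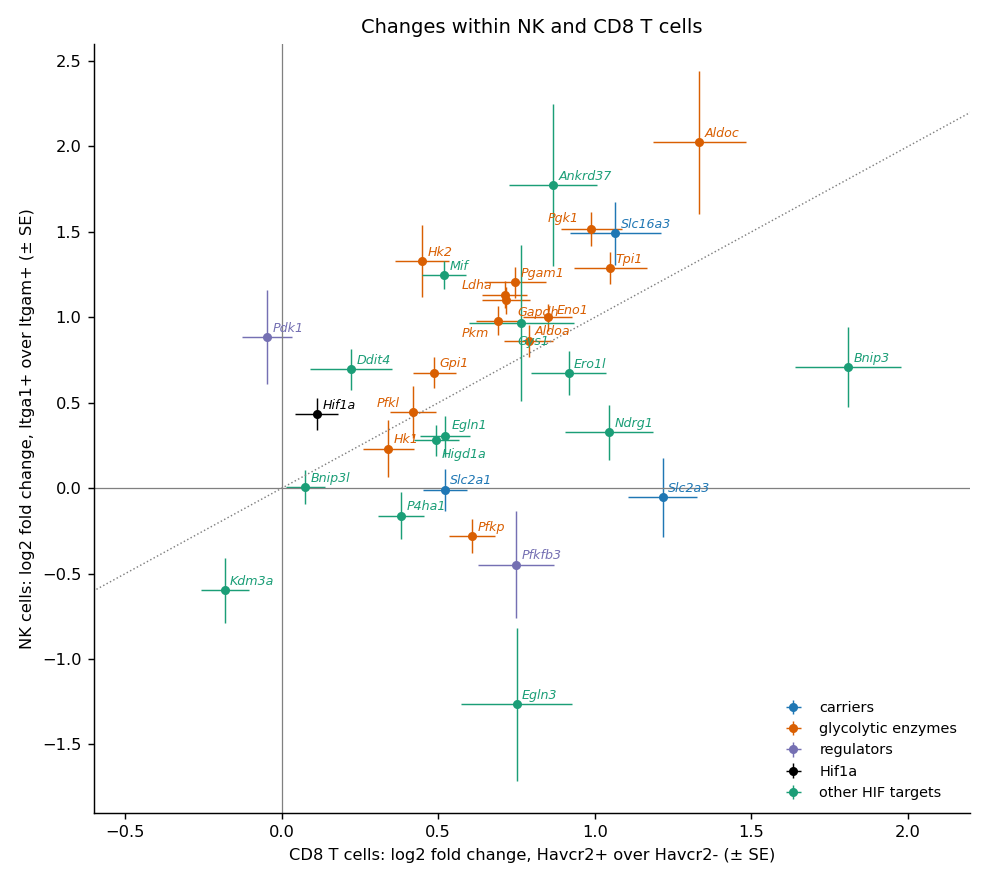
Log2 difference of each member between Itga1-positive and Itgam-positive NK cells (vertical axis) against that between Havcr2-positive and Havcr2-negative CD8 T cells (horizontal axis), with bars of 1 SE and a dotted line of equality, for members tested in both. Enzymes such as Pgk1 and Tpi1 lie in the upper right, Slc2a3 and Slc2a1 lie near 0 for NK cells, and Pfkp and Egln3 lie below 0 for NK cells and above 0 for CD8 T cells.

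Whole cell types were then compared with CD8 T cells in 1 fit, each comparison sharing the CD8 T sums. NK cells here include the 1536 to 1831 cells per library with neither integrin. In NK cells, 18 of 34 members were lower, against 12.7% of all 12584 genes. Against 11.8% of all genes higher, 0 members were higher by edgeR or DESeq2, and 0 at an unadjusted p under 0.05. In cells of 4000 to 16000 UMIs, however, edgeR called Ddit4 (0.58) and Gys1 (0.61) higher in NK cells. In Treg cells, 8 members were higher and 2 lower, against 13.2% and 11.2% of all genes. In gamma-delta T cells, 22 were lower and 2 higher, against 13.1% and 14.0%. The median over the members was -0.52 in NK cells, 0.08 in Treg cells and -0.76 in gamma-delta T cells. Unscaled CPM moved the median of all genes in Treg cells to 0.11, against -0.01 with TMM scaling. In gamma-delta T cells it moved to 0.09, against -0.04, and in NK cells to -0.05, against 0.01.

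Hif1a was ordered Treg, CD8 T, gamma-delta T and NK. It measured 489.9, 477 and 550.2 CPM in Treg cells, 259, 297 and 319 CPM in CD8 T cells, 243, 279.9 and 260.2 CPM in gamma-delta T cells and 156, 179 and 140.1 CPM in NK cells. Treg cells lay above CD8 T cells without overlap (0.68 ± 0.10, adjusted p = 0.000348) and NK cells below them without overlap (-0.83 ± 0.10, adjusted p = 7.04e-05), while gamma-delta T cells overlapped CD8 T cells (-0.25 ± 0.10, adjusted p = 0.0815) and were called lower in the range of 4000 to 16000 UMIs (-0.38, adjusted p = 0.0206).

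Both glucose carriers and the lactate exporter separated the cell types in different ways. Slc2a3 measured 34.5, 40.1 and 54.4 CPM in CD8 T cells, 18.5, 20.4 and 22.6 CPM in Treg cells, 12.5, 15.4 and 15.1 CPM in gamma-delta T cells and 11.3, 11.4 and 11.1 CPM in NK cells. Every CD8 T value was above all others, with log2 differences of -1.18 ± 0.12 in Treg, -1.69 ± 0.16 in gamma-delta T and -1.86 ± 0.12 in NK cells. Slc16a3 was instead highest in Treg cells, at 139.8, 149 and 113 CPM against 43.2, 43.9 and 64.4 CPM in CD8 T cells and 17.1, 24.6 and 26.9 CPM in NK cells (1.32 ± 0.19 and -1.08 ± 0.19). Slc2a1 was lower in gamma-delta T cells (-0.74 ± 0.15, adjusted p = 0.00469) and did not pass the test in NK cells (-0.06 ± 0.12) or Treg cells (0.08 ± 0.12).

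The share of UMIs taken by the enzymes was lower in gamma-delta T cells than in NK, CD8 T or Treg cells in every library. Tpi1 measured 82.8, 108 and 127 CPM in gamma-delta T cells against 317, 290.5 and 548 CPM in CD8 T cells (-1.93 ± 0.21, adjusted p = 5.85e-05). Pgk1 stood at 189, 196 and 211 CPM against 439, 423 and 752 CPM (-1.49 ± 0.21), and Gapdh at 1067, 1019 and 1247 CPM against 2469, 2301 and 3761 CPM (-1.42 ± 0.16). None of these overlapped. Hk2 went the other way in level, at 83.4, 83.3 and 102 CPM against 60.7, 59.9 and 56.3 CPM, without overlap but without passing the test (0.52 ± 0.25, adjusted p = 0.14), and it was called higher in cells of 4000 to 16000 UMIs (0.86, adjusted p = 0.00463) and without cycling cells (0.80). In NK cells 8 of the 14 enzymes were lower, among them Gapdh (-0.70 ± 0.15) and Pgk1 (-0.74 ± 0.19), and Eno1, Pkm, Ldha, Pgam1, Aldoc and Hk2 did not pass the test. In the range of 4000 to 16000 UMIs Hk2 (-0.79), Aldoc (-1.21) and Ldha (-0.37) were called lower in NK cells and Tpi1 (-0.38) was not, and in gamma-delta T cells Pkm (-0.28) and Hk1 (-0.26) lost their calls.

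Treg cells differed from CD8 T cells in single steps. Pkm (pyruvate kinase) measured 1196, 1066 and 1117 CPM against 537, 483 and 809 CPM, without overlap (0.81 ± 0.15, adjusted p = 0.00203), and Hk1 was higher by 0.30 ± 0.10 (adjusted p = 0.0435). The Hk1 call was lost in 7 alternative settings and kept in 5. The other 12 enzymes did not pass the test, and Gapdh and Pgam1 turned from -0.03 and -0.00 to 0.18 and 0.25 without the Kaede-red library, both then called. The clearest member in Treg cells was Ddit4, at 301, 312 and 359 CPM against 52.5, 64.0 and 77.6 CPM in CD8 T cells (2.21 ± 0.10, 4.64-fold, adjusted p = 1.71e-07). Egln3 was higher at 20.2, 16.0 and 12.1 CPM against 3.87, 3.88 and 4.97 CPM (1.76 ± 0.26), and so were Bnip3 (0.78 ± 0.21) and Ndrg1 (0.76 ± 0.20), the latter pair with overlapping values. Leaving out either Kaede-green library left 4 of the 8 higher calls, and leaving out the Kaede-red library raised the count to 17. The share of all genes called in these settings is not given here, so the rise is not read as particular to the members. Between 4000 and 16000 UMIs all 8 remained called and Aldoc (0.94), Pfkl (0.40), Ldha (0.33), P4ha1 (0.50) and Bnip3l (0.35) joined them, with Hk2 (-0.89) called lower.

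In gamma-delta T cells, the 2 higher members were Egln3 (9.34, 9.26 and 14.1 CPM, on 15, 9 and 29 UMIs, 1.31 ± 0.34) and Ero1l, at 83.4, 112 and 102 CPM against 48.8, 44.6 and 73.6 CPM in CD8 T cells (0.75 ± 0.20, adjusted p = 0.017). Neither overlapped CD8 T cells, but both calls were lost without either Kaede-green library. Ankrd37 had the widest difference, at 3.74, 4.12 and 3.89 CPM against 19.2, 17.7 and 25.9 CPM (-2.55 ± 0.35), on 6, 4 and 8 UMIs. Mif was lower by -1.41 ± 0.23, Bnip3 by -1.88 ± 0.30 and P4ha1, a collagen prolyl hydroxylase subunit, by -1.32 ± 0.15 on the log2 scale. In the UMI range of 4000 to 16000, Ndrg1 (-0.37) and Ddit4 (-0.37) lost their lower calls. In NK cells, Ankrd37 (-1.87 ± 0.20), Bnip3 (-1.36 ± 0.21), Egln1 (-0.76 ± 0.11), P4ha1 (-0.56 ± 0.11) and Bnip3l (-0.46 ± 0.12) were the 5 lower HIF targets, and 9 or 10 of the 18 lower members remained called when a Kaede-green library was left out.

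**Figure D4:**
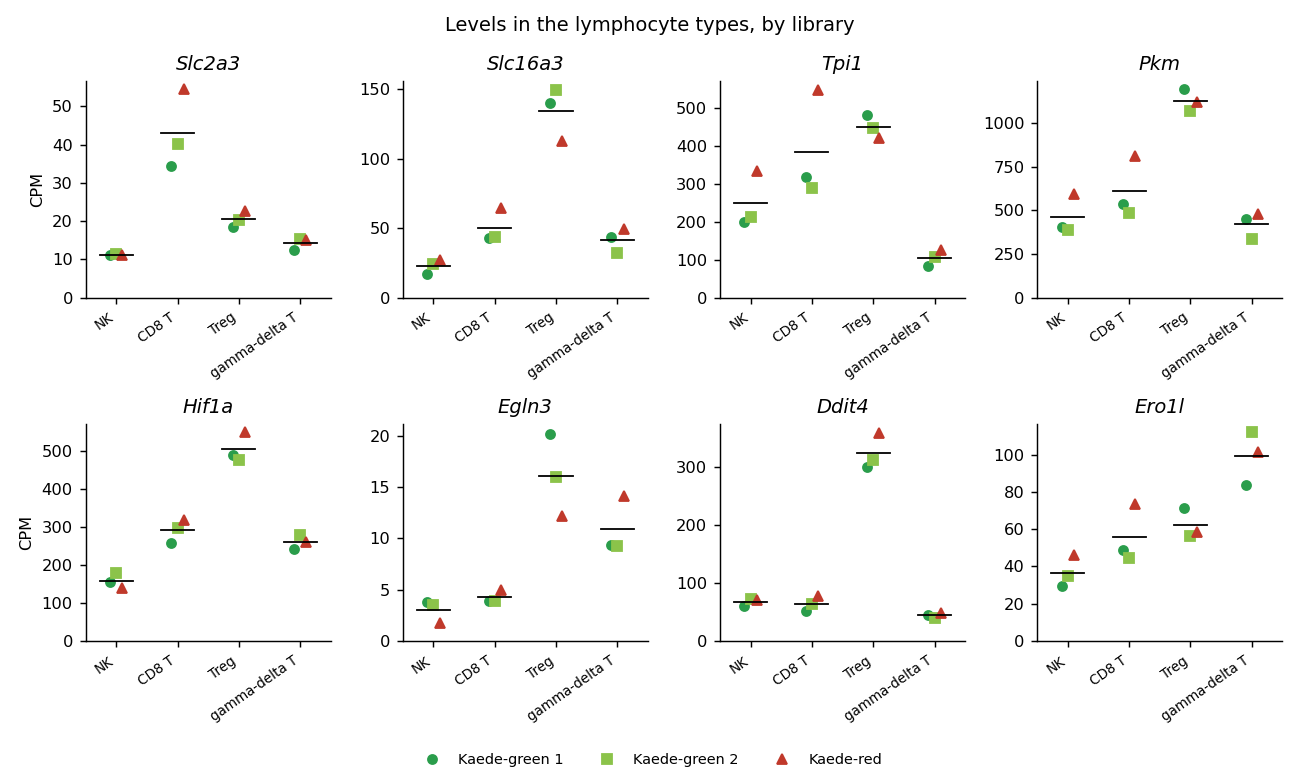
Level in CPM of Slc2a3, Slc16a3, Tpi1, Pkm, Hif1a, Egln3, Ddit4 and Ero1l in NK, CD8 T, Treg and gamma-delta T cells. Each library has a point, and a line marks the mean of the 3. Slc2a3 is highest in CD8 T cells, Slc16a3, Pkm, Hif1a, Egln3 and Ddit4 in Treg cells, and Tpi1 is lowest in gamma-delta T cells.

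Other genes of the pathways were read from further lists. Of 12 tested other glycolysis genes, 6 were higher in Itga1-positive NK cells, where 18.4% of all genes were higher, led by the enolase Eno3 (2.07 ± 0.31) from 3.44, 2.94 and 1.54 CPM to 11.8, 11.6 and 12.5 CPM. In CD8 T cells with Havcr2, 2 of 16 were higher and 1 lower, against 13.2% and 13.4% of all genes, the last being Ldhb, the heart-type lactate dehydrogenase subunit (-1.09 ± 0.20), at 1.38, 1.56 and 1.41 CPM against 2.87, 2.87 and 3.20 CPM. Ldhb was higher in Treg than in CD8 T cells (2.21 ± 0.23) and lower in NK cells (-2.18 ± 0.27). The list of other HIF targets and pathway genes did not go 1 way: 4 of 21 were higher and 9 lower in Itga1-positive NK cells (median -0.28), against 18.4% and 17.2% of all genes, while 10 of 27 were higher and 4 lower in Havcr2-positive CD8 T cells (median 0.14), against 13.2% and 13.4%. The 4 higher in NK cells and the 4 lower in CD8 T cells are thus near the share of all genes. Hilpda, an inhibitor of lipolysis, led the higher ones in NK cells, at 51.6, 74.3 and 102 CPM in Itgam-positive and 239, 261 and 278 CPM in Itga1-positive cells (1.93 ± 0.13, adjusted p = 1.62e-06). Vegfa, the vascular growth factor, was higher in NK than in CD8 T cells (3.61 ± 0.23), at 324, 296 and 168 CPM against 22.2, 27.3 and 16.9 CPM. Within NK cells, Vegfa stood at 383, 376 and 335 CPM in Itgam-positive and at 246, 238 and 142 CPM in Itga1-positive cells, without overlap.

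Pentose phosphate and citrate cycle genes were counted in the same way. In Itga1-positive NK cells, 4 of 8 tested pentose phosphate genes were higher, with transketolase Tkt at 0.78 ± 0.09, and 8 of 20 citrate cycle genes, with fumarase Fh1 at 0.72 ± 0.17, against 18.4% of all genes. In Havcr2-positive CD8 T cells, 2 of 9 and 4 of 20 were higher, against 13.2% of all genes, with Tkt at 0.26 ± 0.06 and the succinate dehydrogenase subunit Sdhb at 0.26 ± 0.06, so that the citrate cycle count is near that share. The difference between the NK and CD8 T differences was called for 3 of 8 pentose phosphate genes (Pgd, Tkt and Pgls, at 0.67, 0.57 and 0.44) and 4 of 20 citrate cycle genes, against 11.3% of all genes. Counts for the further lists come from all cells passing the filters, and how they hold in subsets of cells was not examined. In the same test, 0 of the 6 larger member differences remained called between 4000 and 16000 UMIs. In gamma-delta T cells, 6 of 20 citrate cycle genes were lower than in CD8 T cells, against 13.1% of all genes.

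Levels by Kaede color are described without a test, since there was 1 Kaede-red library. A member was counted where Kaede-red lay on the same side of both Kaede-green libraries, by at least 0.5 on the log2 scale from the nearer and by more than the Kaede-green libraries differed, with 30 UMIs or more over the 3 sums. In Havcr2-negative CD8 T cells, 9 of 34 members were higher in Kaede-red, against 6.13% of all genes, and 0 lower, against 7.58%. Aldoc was higher by 1.40 on the log2 scale over the mean of the Kaede-green libraries, Bnip3 by 1.12, Ndrg1 by 0.93, Tpi1 by 0.90, Pgk1 by 0.77, Pgam1 by 0.66, Gapdh by 0.63, Ankrd37 by 0.61 and Pkm by 0.59. Bnip3, for example, measured 14.9 and 16.0 CPM in the Kaede-green libraries and 33.7 CPM in Kaede-red, with a 95% exact Poisson interval of 31.6 to 35.9 CPM that covers counting error only. Kaede-red was above both Kaede-green libraries for 28 of the 34 members in these cells, and for 41.2% of all genes. At 4000 to 16000 UMIs, and likewise without cycling cells, 12 members were counted, and the share of all genes in those settings is not given here.

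In Havcr2-positive CD8 T cells 0 members met that rule in either direction, against 2.78% of all genes higher and 5.47% lower, although Kaede-red was above both Kaede-green libraries for 24 of 34 members and 30.7% of all genes. Within 4000 to 16000 UMIs 5 were counted as higher there, and the share of all genes in that range is not given here. The 2 Kaede-green libraries themselves differed in these cells, for example at 87.2 and 46.3 CPM for Bnip3 and 599 and 409 CPM for Tpi1.

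Itga1-positive NK cells had Kdm3a lower in Kaede-red (17.3, 18.8 and 12.03 CPM) as the single member of 35, against 10.8% of all genes lower, and 0 higher, against 3.11%. Itgam-positive NK cells, with 76 Kaede-red cells, had 4 of 29 members higher (Hk2, Pfkl, Gapdh and Ero1l), against 6.13% of all genes, and Pfkfb3 lower, against 14.8%. That Pfkfb3 value was 1 UMI, or 1.54 CPM with an interval of 0.0390 to 8.57 CPM, beside 10.3 and 11.3 CPM. In Treg cells, Mif was the 1 member of 34 counted, lower at 572 CPM beside 910.0 and 857 CPM, against 3.56% of all genes lower and 4.08% higher. Kaede-red was above both Kaede-green libraries for 9 of the 34 members in Treg cells and below both for 13, where 41.2% of all genes were above. In gamma-delta T cells, Egln3 was the 1 member of 30 counted, higher at 14.1 CPM (interval 9.45 to 20.3) beside 9.34 and 9.26 CPM, against 4.13% of all genes higher and 3.85% lower. The count of members with Kaede-red above both was 16 of 35 in Itga1-positive NK cells (26.9% of all genes), 20 of 29 in Itgam-positive NK cells (31.7%) and 16 of 30 in gamma-delta T cells (32.9%).

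**Figure D5:**
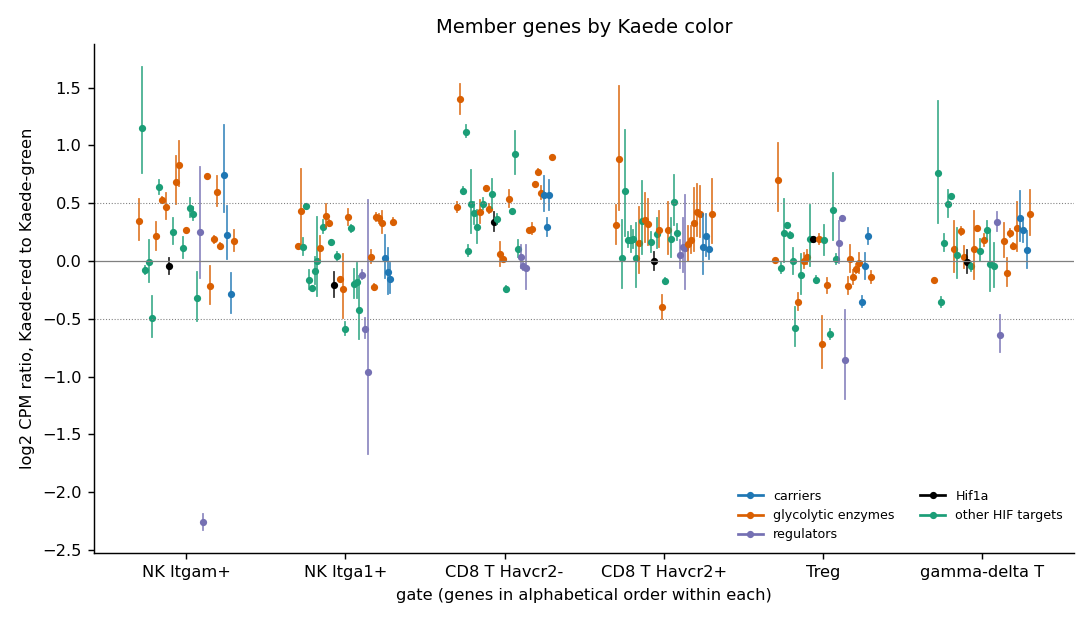
Log2 ratio of CPM in the Kaede-red library to the Kaede-green libraries for each member (vertical axis) in 6 gates (horizontal axis), the point showing the ratio to the Kaede-green mean and the line spanning the ratios to the 2 Kaede-green libraries, with dotted lines at 0.5 either way and members under 30 UMIs left out. In Havcr2-negative CD8 T cells 28 of 34 members have both ratios above 0, with Aldoc and Bnip3 highest.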

How the data were processed

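The authors sorted the cells, made 10x Genomics 3′ libraries and deposited raw UMI counts per gene and barcode from Cell Ranger against the mm10 build (version 6.0.1 per the file headers, 6.1.2 per the processing notes). The 3 matrices held 32285 gene identifiers under 32245 symbols, and Aldoa has a second identifier with 9 UMIs beside 306602. Whether reads were counted by strand at overlapping genes was not examined here, and no member overlaps another gene on its own strand. The 35 members, the gene lists and the gates were chosen with earlier results of these data known. Gates were applied to raw UMIs in cells that showed 1000 to 6000 genes and a mitochondrial share below 7.5%. Doublets were not called and free RNA was not removed, and an alternative left out cells holding 2 or more UMIs over the B cell, myeloid and tumor or stroma markers together. UMIs were summed per library and gate, since cells are not replicates.

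Sums were tested with edgeR 4.0.16 in R 4.3.3 (quasi-likelihood test, TMM factors, filterByExpr, library as a block, Benjamini-Hochberg adjustment over all genes tested, threshold 0.05), with the 9 gate genes left out of the fits. The NK and CD8 T subset comparisons used 6 sums each, and the difference between them and the cell type comparisons used 12 sums. The block pairs gates cut from the same library. Log2 differences are those of the fit, and each SE was derived from the log2 difference and the F statistic of its quasi-likelihood test. An SE is therefore not the spread of the 3 within-library differences. CPM scales a sum to its total UMIs without gene length, so levels of different genes are not compared. DESeq2 1.42.0 was an alternative, and the count test was tested on simulated data. The 1 Kaede-red library allows no test between colors. In these comparisons n is 3 libraries, the smallest gate held 76 cells, and intervals cover counting error only. All members are named, and from each further list the 3 called genes with the largest log2 difference per comparison could be named. Promoter windows came from RefSeq (GRCm38.p6), and 32235 of the 32285 identifiers matched a GENCODE mouse annotation, those of the 35 members included. Tables and figures were made with Python 3.11.15, numpy 2.4.6, pandas 2.3.3, scipy 1.17.1 and matplotlib 3.10.9.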

Additional observations from a re-analysis of the deposited data

Results flagged for a closer look

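The difference between Itga1-positive and Itgam-positive NK cells and that between Havcr2-positive and Havcr2-negative CD8 T cells were themselves different for 12 members, by a test of the difference between them (edgeR, 3 libraries, adjusted over all genes). On the log2 scale, the NK difference minus the CD8 T difference was -2.08 for Egln3, -1.41 for Pfkfb3, -1.38 for Slc2a3, -0.90 for Pfkp, -0.57 for P4ha1 and -0.55 for Slc2a1. It was 0.96 for Hk2, 0.94 for Pdk1, 0.76 for Mif, 0.55 for Pgk1, 0.45 for Ldha and 0.41 for Gapdh. Egln3 rests on as few as 2 UMIs in a sum and Pfkfb3 on as few as 1. Of the 6 positive differences, 0 remained called between 4000 and 16000 UMIs, 0 without mixed droplets and 1 without cycling cells. Pgk1, Gapdh and Ldha turned in sign in that UMI range. Of the 6 negative differences, 4, 4 and 3 remained called in those subsets.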

How the results depend on the processing

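With 3 libraries, 1 of them Kaede-red, the fits have few degrees of freedom, and calls on members with under 30 UMIs in a gate (such as Egln3, Aldoc, Ankrd37, Pfkfb3 and Pdk1) are limited by depth. The NK gates differ in UMIs per cell. In the 6 tested comparisons, TMM and RLE factors gave counts of members within 1.5 times of each other. Where a count moved or a direction turned, the cause was not tested. The share of all genes under each alternative setting is not given here, so a moved count is not read as a change particular to the members.

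Of the members called lower in Itga1-positive NK cells (3), 0 were called by DESeq2, without cycling cells and without mixed droplets, 1 without the low-count filter, in cells of 4000 to 16000 UMIs and with the stricter gate (2 or more Itga1 UMIs, no Cd3e), and 0 to 2 with a library left out. The 1 member lower with Havcr2 was lost (0) by DESeq2, in the UMI range and without cycling cells, and numbered 0 or 1 with a library left out, being lost without Kaede-green replicate 2. For larger differences in NK than in CD8 T cells (6), the count was 10 without the filter, 0 in the UMI range, 1 without cycling cells, 0 without mixed droplets and 0 to 6 with a library left out. Smaller differences numbered 2 to 4 with a library left out. With Ighm not counted among the mixed-droplet markers, an alternative chosen after seeing the data, 6 larger and 7 smaller differences were called.

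Members higher in NK than in CD8 T cells numbered 1 with all barcodes, 2 in the UMI range, 1 without cycling cells and 1 without mixed droplets, and lower ones 9 to 26 with a library left out. Treg counts were 13 higher in the UMI range, 4 to 17 higher and 1 to 3 lower with a library left out, and 4 lower without the filter. Members higher in gamma-delta T cells numbered 0 to 2 with a library left out. Without the replicate block, 1 member was higher and 0 lower with Havcr2, 0 were larger and 3 smaller in NK cells, 11 were lower in NK than in CD8 T cells and 5 were higher in Treg cells. The block moved no other count by more than 1.5 times.

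For Kaede-red against Kaede-green, Itgam-positive NK cells had 2 members higher in the UMI range, 7 without cycling cells and 0 at a log2 fold of 1, and 2 lower without cycling cells. Itga1-positive NK cells had 3 higher without cycling cells and 1 with TMM-scaled CPM, and 3 lower with all barcodes, 0 with TMM-scaled CPM and 0 at a fold of 1. Havcr2-negative CD8 T cells had 2 higher at a fold of 1, and Havcr2-positive ones 5 in the UMI range. Treg cells had 0 lower with all barcodes, in the UMI range and at a fold of 1, and 2 with TMM-scaled CPM. Gamma-delta T cells had 0 higher with all barcodes, without cycling cells and at a fold of 1, and 1 lower with all barcodes, in the UMI range and without cycling cells.

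Signs turned for Bnip3 in NK cells (-0.28 in the UMI range, -0.15 without mixed droplets), for Gapdh (-0.14), Pgk1 (-0.37) and Ldha (-0.063) in the difference between NK and CD8 T differences in the UMI range, and, with a library left out, for Gapdh (-0.17 to 0.18) and Pgam1 (-0.17 to 0.25) in Treg cells, the highest values being those without the Kaede-red library.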
